A study of Homo sapiens with 6 samples.

Results

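ACTB and FLNA, which encode parts of the actin skeleton, and THBS1, CCN2 and ANKRD1, which are widely used as targets of serum response factor (SRF) and of YAP, were described in RKO cells, an established human colorectal carcinoma line. RNA of cells kept for 48 h in a fasting medium with 1% serum and 1 g/L of glucose (3 libraries) was compared with that of cells in a control medium with 10% serum and 4.5 g/L of glucose (3 libraries). All cells are labelled wild type, and no drug-treated sample was analysed here. The 5 genes were taken by name out of 3511 genes in the deposited table, and they had been picked because of their difference between the 2 media. Their values in this contrast are therefore a description, given without a test. All values are normalized counts, that is, the reads of a gene divided by 1 size factor per library.

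The table itself holds only genes that the authors had called, 11.8% of the 29845 they tested, so a gene outside it is described as not listed and has no value here. Whole reads could be recovered for 100% of values in each library (tolerance 0.01 read), and reads in listed genes numbered 4017618 to 5602177 per library. The fasting library numbered 3 stood apart from the other fasting libraries: its values went down with transcript length (Spearman correlation -0.722 over 2886 genes, which are not independent), whereas the same measure for control replicate 3 was -0.0376. The log2 differences of ACTB, FLNA, THBS1 and CCN2 are therefore given with and without it, and those of other genes only where stated. Of 12 epithelial markers 1 was listed, KRT18, and of 10 fibroblast markers 0 were listed, so the table cannot check the labelled cell type. Nothing in the labels says that the 3 libraries of a medium came from separate cultures, and p-values measure only the spread between them, which may be technical. In bulk RNA, fewer cells of a type and less RNA per cell cannot be told apart.

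Actin monomers hold back the cofactor MRTF. When actin polymerises, MRTF is released, enters the nucleus and, with SRF, switches on genes of the actin skeleton through a DNA element called the CArG box. YAP and TAZ, which the Hippo kinases keep out of the nucleus, act through TEAD factors on secreted and signalling genes, with CCN2 and ANKRD1 as the textbook readouts. Serum lipids are known to feed both routes, and the 2 target lists overlap in many cell types.

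The promoter windows of CCN2, ANKRD1 and THBS1 are shown because they carry the TEAD element, and that of FLNA because it carries a CArG box. They are the RefSeq windows on GRCh38.p14, from 250 bases before to 50 bases after the start, and 4 of the 5 genes had one (ACTB did not). Capitals mark GGAATG on either strand, the core TEAD letters, in the first 3 windows, and the CArG box in the last. They lie at chr6:131951323-131951622 (minus strand), chr10:90921038-90921337 (minus), chr15:39580829-39581128 (plus) and chrX:154374585-154374884 (minus).
CCN2: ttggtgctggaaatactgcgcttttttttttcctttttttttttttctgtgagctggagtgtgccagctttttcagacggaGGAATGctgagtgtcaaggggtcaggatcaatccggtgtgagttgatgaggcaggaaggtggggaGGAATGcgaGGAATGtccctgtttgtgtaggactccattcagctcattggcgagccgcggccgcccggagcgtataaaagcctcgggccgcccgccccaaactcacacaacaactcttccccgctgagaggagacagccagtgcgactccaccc
ANKRD1: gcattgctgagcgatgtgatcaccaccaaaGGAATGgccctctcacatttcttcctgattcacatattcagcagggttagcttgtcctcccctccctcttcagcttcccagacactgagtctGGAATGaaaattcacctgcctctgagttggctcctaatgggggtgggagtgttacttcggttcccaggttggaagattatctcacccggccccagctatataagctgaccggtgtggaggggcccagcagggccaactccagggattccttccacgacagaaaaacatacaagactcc
THBS1: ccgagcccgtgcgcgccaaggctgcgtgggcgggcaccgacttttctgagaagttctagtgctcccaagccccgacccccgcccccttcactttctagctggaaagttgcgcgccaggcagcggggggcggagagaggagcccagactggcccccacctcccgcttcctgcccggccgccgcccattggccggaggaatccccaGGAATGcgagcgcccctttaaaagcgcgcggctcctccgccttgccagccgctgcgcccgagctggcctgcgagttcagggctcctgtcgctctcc
FLNA: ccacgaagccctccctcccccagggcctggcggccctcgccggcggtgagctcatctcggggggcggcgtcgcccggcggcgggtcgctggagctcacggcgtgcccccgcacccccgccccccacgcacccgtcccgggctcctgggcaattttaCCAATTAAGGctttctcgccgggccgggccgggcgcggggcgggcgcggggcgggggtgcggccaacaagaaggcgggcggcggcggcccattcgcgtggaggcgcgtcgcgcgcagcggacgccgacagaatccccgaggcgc

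The CCN2 window held 3 GGAATG matches, at -169, -104 and -95 counted from the start to the first base of each. The ANKRD1 window held 2, at -220 and -128, and the THBS1 window 1, at -46. All 6 lay on the strand of the gene. FLNA held no GGAATG and 1 CArG box, at -94, which was not found in the other 3 windows. A loose AP-1 pattern (TGANTCA, any middle base), called the AP-1 element here, was found in ANKRD1 at -195, as TGATTCA. It was found in none of the other 3. The 3 motifs do not overlap in these windows. Of 27305 RefSeq promoter windows of this length, 14.0% hold GGAATG at least once, 1.37% at least 2 times and 0.146% at least 3 times, 1.29% hold a CArG box and 7.76% the AP-1 element.

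Among genes that passed the test across the table, described further on, 1226 called higher in fasting medium and 1219 called lower had a window. The TEAD letters stood in 9.87% of the windows of genes called higher and in 11.4% of those called lower. For the AP-1 element these shares were 7.10% and 2.38%, and for the CArG box 1.55% and 0.984%. Among the 18 YAP-TAZ-TEAD target genes with a window, with CCN2, ANKRD1 and THBS1 counted in, 8 held GGAATG and 0 held a CArG box. Among 25 MRTF-SRF cytoskeletal targets with a window, with FLNA counted in, 3 held GGAATG and 5 a CArG box. A match is a description of letters, not of a site in use.

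**Figure D1:**
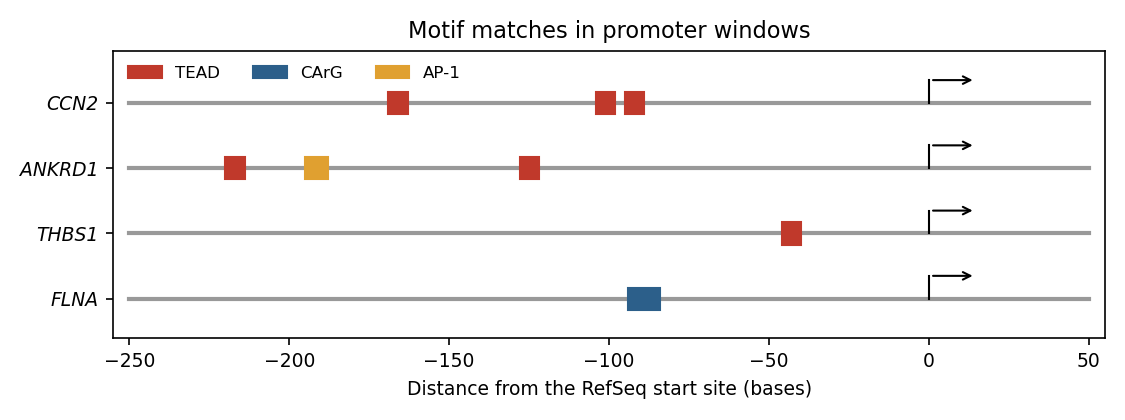
Motif matches in the RefSeq promoter windows of 4 genes, by distance from the start site in bases (arrow: start and direction of transcription). Red marks the TEAD letters, blue the CArG box and orange the AP-1 element; CCN2 has 3 red marks, ANKRD1 2 and THBS1 1, and FLNA has 1 blue mark.

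The structural pair lay lower in fasting medium and the 3 target genes lay higher. ACTB (ENSG00000075624), one of the 2 cytoplasmic actins that form the filaments of every cell, had 24789, 24174 and 30828 normalized counts in fasting replicates 1 to 3, against 46155, 45626 and 48388 in control replicates 1 to 3. The highest fasting library lay well below the lowest control library. The log2 difference of ACTB, on the log2(normalized count + 1) scale used for all differences here, was -0.82 ± 0.11 (SE, n = 3 each), and -0.93 without fasting replicate 3. FLNA (ENSG00000196924), filamin A, which cross-links actin filaments and ties them to integrins, had 20906, 19537 and 13026 normalized counts in fasting medium, against 31803, 32493 and 36865 in control medium. The groups were again apart, but 1 fasting library lay far below the others. The log2 difference of FLNA was -0.95 ± 0.22 (SE, n = 3 each), and -0.74 without fasting replicate 3.

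Among the targets, THBS1 (ENSG00000137801), the secreted matricellular protein thrombospondin-1, had 123, 153 and 86.6 normalized counts in fasting medium, against 5.92, 4.26 and 3.63 in control medium. The lowest fasting library was still many times above the highest control library. The log2 difference of THBS1 was 4.42 ± 0.29 (SE, n = 3 each), or 21.5-fold by the means of log2 values, and 4.64 without fasting replicate 3. THBS1 ranked 18 among the 3511 listed genes by the size of its rise. Its control level rests on 6, 6 and 5 reads, and pooling the 17 reads of the control libraries gave 4.48 normalized counts with an exact Poisson interval (95%) of 2.61 to 7.17. The 306 fasting reads gave 124 with an interval of 110 to 139. These intervals cover counting error only.

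CCN2 (ENSG00000118523, formerly CTGF), a secreted matricellular protein and a direct TEAD target, had 293, 271 and 316 normalized counts in fasting medium, against 50.3, 43.3 and 46.5 in control medium. CCN2 was the steadiest of the 3 targets between replicates, and its groups were far apart. Its log2 difference was 2.63 ± 0.09 (SE, n = 3 each), or 6.17-fold, and 2.57 without fasting replicate 3. ANKRD1 (ENSG00000148677), a stress-induced nuclear and sarcomeric ankyrin repeat protein, had 7, 7 and 3 reads in fasting replicates 1 to 3, or 8.89, 7.32 and 4.13 normalized counts, against 0 reads in every control library. It was thus near the limit of detection in fasting medium and below it in control medium. Set against the level that 3 reads over the control group would give, 0.790 normalized counts, the fasting mean of 6.78 was 8.58 times as high. This ratio leaves out counting error and is not a lower limit. Without control replicate 2 or 3 this ratio was 5.40 or 5.47, since the same 3 reads are then spread over fewer control libraries. The 17 fasting reads have an exact Poisson interval of 4.01 to 11.0 normalized counts. In all 5 genes the 3 libraries of one medium lay beyond those of the other, as was the case for 100% of the listed genes.

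**Figure D2:**
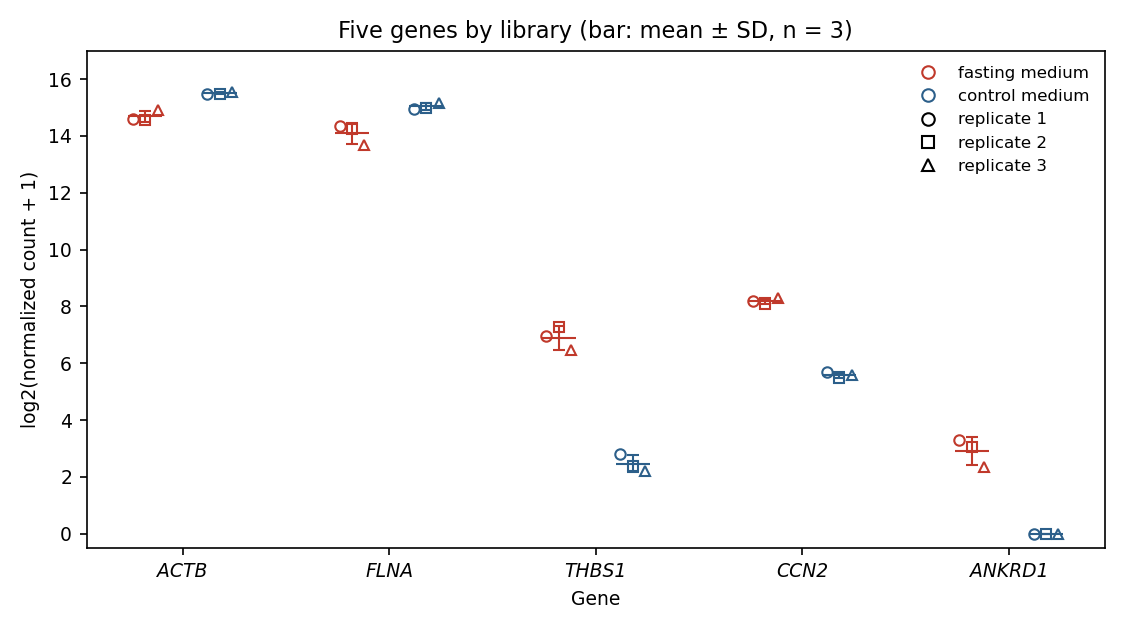
Level of each gene in every library as log2(normalized count + 1), fasting medium in red and control medium in blue, with marker shapes for replicates 1 to 3 and bars for the mean ± SD (n = 3). ACTB and FLNA sit lower in fasting medium, THBS1, CCN2 and ANKRD1 higher, and ANKRD1 is at 0 in all 3 control libraries.

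The 5 genes span very different levels. Per kilobase of the longest coding transcript in GENCODE 29, normalized counts in fasting medium were 13845 ± 1914 for ACTB, 2093 ± 494 for FLNA, 125 ± 9.7 for CCN2, 15.5 ± 4.3 for THBS1 and 3.42 ± 1.23 for ANKRD1 (SD, n = 3). In control medium they were 24322 ± 763 for ACTB, 3960 ± 322 for FLNA, 20.0 ± 1.5 for CCN2, 0.592 ± 0.152 for THBS1 and 0 for ANKRD1. The order of the 5 genes was the same in both media, and in each medium neighbours in the order lay further apart than their SDs. ACTB ranked 24 among the listed genes by mean normalized count in fasting medium and 4 in control medium. Ranks for FLNA were 41 and 8.

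The spread between replicates of ACTB and FLNA was far above what counting reads gives. The coefficient of variation of ACTB was 13.8% in fasting medium and 3.14% in control medium, where reads alone would give 0.684% and 0.416%. FLNA varied by 23.6% in fasting medium and by 8.14% in control medium, against 0.825% and 0.488% from reads alone. For CCN2 the values were 7.73% and 7.46%, close to or below the 6.50% and 13.2% that counting gives. THBS1 varied by 27.4% in fasting medium and by 25.6% in control medium, where counting gives 9.97% and 42.5%. ANKRD1 varied by 35.8% in fasting medium, where counting gives 42.3%.

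In fasting replicate 3 the genes split by length. Relative to the average of fasting replicates 1 and 2, on the log2 scale, ACTB (1921 bases) differed by 0.33 and CCN2 (2339 bases) by 0.17. FLNA (8516 bases) differed by -0.63 and THBS1 (7775 bases) by -0.67. Listed genes of like length (within a factor of 0.8 either way) had median deviations of 0.36 around ACTB (509 genes), 0.27 around CCN2 (707 genes), -0.56 around FLNA (280 genes) and -0.51 around THBS1 (361 genes). These 4 genes thus lay inside the middle 90% of genes of their length. ANKRD1 (1979 bases) differed by -0.97, on 3 reads, while genes of its length had a median of 0.35.

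**Figure D3:**
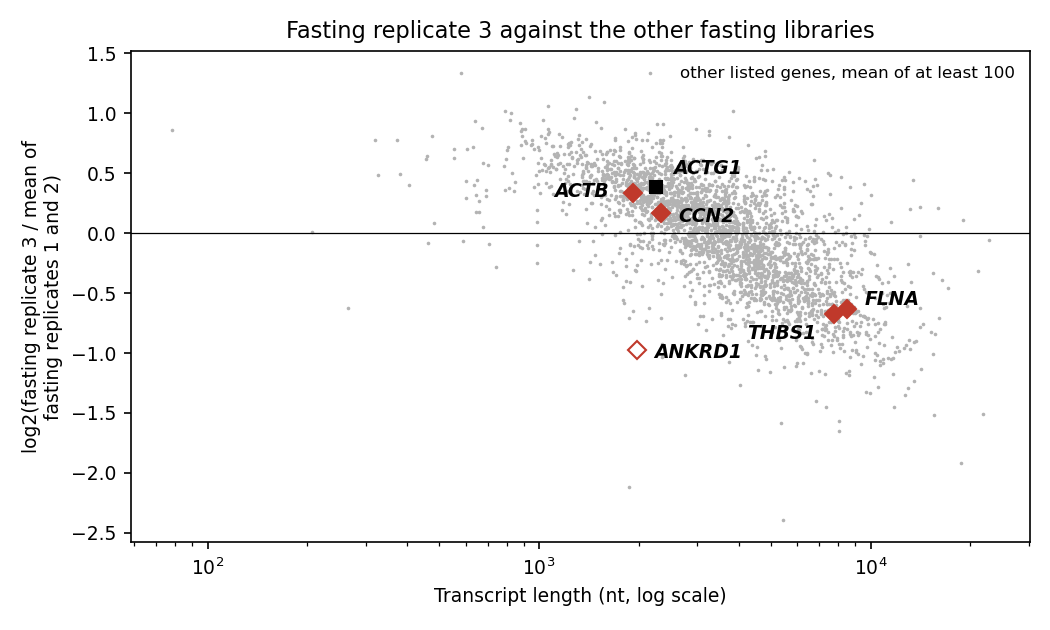
Each point is a listed gene averaging 100 normalized counts or more in either medium, with transcript length in bases (log axis) against the log2 ratio of fasting replicate 3 to the mean of fasting replicates 1 and 2. Red diamonds mark the described genes (open: ANKRD1, on 3 reads) and the black square ACTG1; ACTB and CCN2 lie above 0, FLNA and THBS1 at -0.63 and -0.67.

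Ratios between genes of 1 library were taken on normalized counts plus 1, so they hardly depend on the scaling between libraries where both genes are abundant, but do depend on the added 1 for THBS1 in control medium. FLNA over ACTB was 0.843, 0.808 and 0.423 in fasting replicates 1 to 3, against 0.689, 0.712 and 0.762 in control replicates 1 to 3. The fasting ratios lay on both sides of the control ratios, above them in 2 libraries and below them in replicate 3. The log2 difference of this ratio was -0.13 ± 0.33 (SE, n = 3 each) with all libraries and 0.20 without fasting replicate 3, so its sign rests on that library. CCN2 over ACTB had log2 ratios of -6.40, -6.47 and -6.60 in fasting medium, against -9.81, -10.01 and -9.99 in control medium, a difference of 3.45 ± 0.09. THBS1 over FLNA, a pair of like length, differed by 5.37 ± 0.26, and by 5.38 without fasting replicate 3. THBS1 over CCN2 differed by 1.80 ± 0.33, and the fasting ratios of 0.422, 0.565 and 0.276 all lay above the control ratios of 0.135, 0.119 and 0.0975, each with 1 added to both counts. With 5 added in place of 1 the log2 difference of THBS1 over CCN2 was 1.16.

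ACTB has a near-identical partner, ACTG1 (ENSG00000184009), the other cytoplasmic actin, and ACTG1 was higher where ACTB was lower. ACTG1 had 56424, 57842 and 74714 normalized counts in fasting medium, against 39381, 38544 and 44788 in control medium (log2 fold change 0.61 ± 0.14, limma, Benjamini-Hochberg adjusted p = 0.0245). That call was lost without fasting replicate 2 (adjusted p = 0.0587) and without any 1 control library (adjusted p = 0.0549 to 0.132), and with libraries scaled to the total of the listed genes (log2 fold change 0.14). With the deposited scaling the sum of ACTB and ACTG1 was 89590 ± 13820 in fasting medium (SD, n = 3). In control medium it was 87627 ± 4854 (SD, n = 3), a log2 difference of 0.02 ± 0.13 (SE). This sum moves with the scaling. With libraries scaled to the total of the listed genes ACTB differed by -1.30 and ACTG1 by 0.14. With RLE scaling ACTB differed by -0.62 and ACTG1 by 0.81. ACTB made up 30.5%, 29.5% and 29.2% of this sum in fasting replicates 1 to 3, against 54.0%, 54.2% and 51.9% in control replicates 1 to 3. The share was as low in fasting replicate 3 as in the other fasting libraries, and it does not depend on the scaling between libraries. Antisense genes overlap ACTB, FLNA, CCN2 and THBS1 (the last also FSIP1) in GENCODE 29, of which 0 were listed. How reads in the shared coding sequence were divided between ACTB, ACTG1 and their pseudogenes is not given in the sources used here. The other 4 actins of the family, which mark muscle, were not listed.

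**Figure D4:**
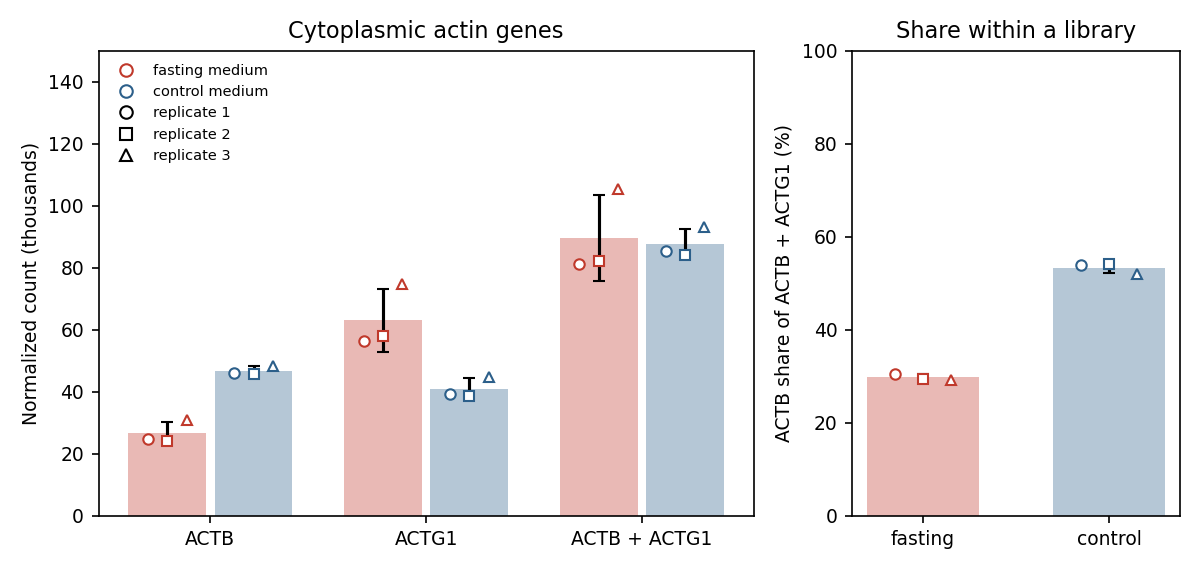
Left, normalized counts (axis in kilo-counts) of ACTB, ACTG1 and their sum in fasting medium (red) and control medium (blue); right, the share of ACTB in the sum, in percent. Bars are means ± SD (n = 3) and markers are replicates 1 to 3. With the deposited scaling the sum averages 89590 in fasting medium and 87627 in control medium, while the share of ACTB is 29.7% and 53.4%.

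The other genes of each pathway were read against the whole table. The limma test (adjusted p under 0.05) called 11.1% of the 29845 genes that the authors tested, 5.85% higher and 5.25% lower in fasting medium. Of the listed genes it called 94.3%, with 49.7% (1745 genes) higher and 44.6% (1567 genes) lower. With libraries scaled to the total of the listed genes 862 were higher and 1708 lower, and with RLE scaling 1761 and 1174. These scalings move the median log2 fold change by -0.48 and 0.20. The median log2 fold change of all listed genes was 0.53. Leaving out the genes chosen by name, 66.7% of the serum response list and 35.3% of the thrombospondin-1 receptor and TGF-beta list were called. Shares were 28.6% for YAP-TAZ-TEAD targets, 23.1% for MRTF-SRF targets, 19.2% for focal adhesion, 18.2% for cross-linkers and 17.9% for Hippo. They were 7.69% for matricellular genes and 6.38% for actin nucleation and turnover. As the lists were chosen with earlier results known, these shares are a description.

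Most of the remaining MRTF-SRF cytoskeletal targets had no value in the table. Of 26 genes other than ACTB and FLNA, 6 were listed, and 4 rose and 2 fell (median 0.90). TUFT1, tuftelin, rose by 1.77 to 1065, 1038 and 1026 normalized counts in fasting medium, against 302, 310 and 302 in control medium (limma, adjusted p = 2.08e-05). TGFB1I1, a focal adhesion LIM protein also called Hic-5, rose by 1.25, FHL2, a LIM-only cofactor, by 1.19 and ACTG1 by 0.61. CALD1, caldesmon, which stabilises actin filaments, and TAGLN2, transgelin-2, both fell by 0.79 on the log2 scale (limma, adjusted p = 0.00229 for CALD1 and 0.00773 for TAGLN2). Classic members such as VCL, ZYX, TAGLN, MYL9 and TPM1 were not listed. Of 7 genes for SRF and its cofactors only MRTFB was in the table, and it fell (log2 fold change -1.29, limma, adjusted p = 0.0112). With control replicate 1 or 3 left out MRTFB no longer passed (adjusted p of 0.0568 or 0.0553). Without fasting replicate 3 its log2 fold change was -0.96.

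The same held for the remaining YAP-TAZ-TEAD targets. Of 21 genes other than THBS1, CCN2 and ANKRD1, 6 were listed, and 5 rose and 1 fell (median 1.21), or 3 and 1 with libraries scaled to the total of the listed genes. CCN1, the close relative of CCN2 formerly called CYR61, had 3462, 3620 and 3835 normalized counts in fasting medium, against 1331, 1369 and 1166 in control medium (log2 fold change 1.50 ± 0.09, limma, adjusted p = 5.98e-05). Its groups did not overlap, and its level was far above that of CCN2 in both media by normalized count. AMOTL2, an angiomotin that binds YAP, rose by 2.15, GADD45A, a growth arrest gene that p53 and ATF4 also induce, by 1.97 and NT5E, the ecto-nucleotidase CD73, by 0.80. LATS2, a Hippo kinase that restrains YAP, rose by 0.91 (limma, adjusted p = 0.0163), and by 1.16 without fasting replicate 3. LATS2 failed the threshold when any of the other 5 libraries, all but fasting replicate 3, was dropped (0.0624 to 0.0769). FJX1 fell by 0.70 on the log2 scale (limma, adjusted p = 0.0113), and failed the threshold when fasting replicate 2, control replicate 1 or control replicate 2 was dropped (0.0519 to 0.0642). With libraries scaled to the total of the listed genes, LATS2 (0.44) and NT5E (0.32) no longer passed.

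**Figure D5:**
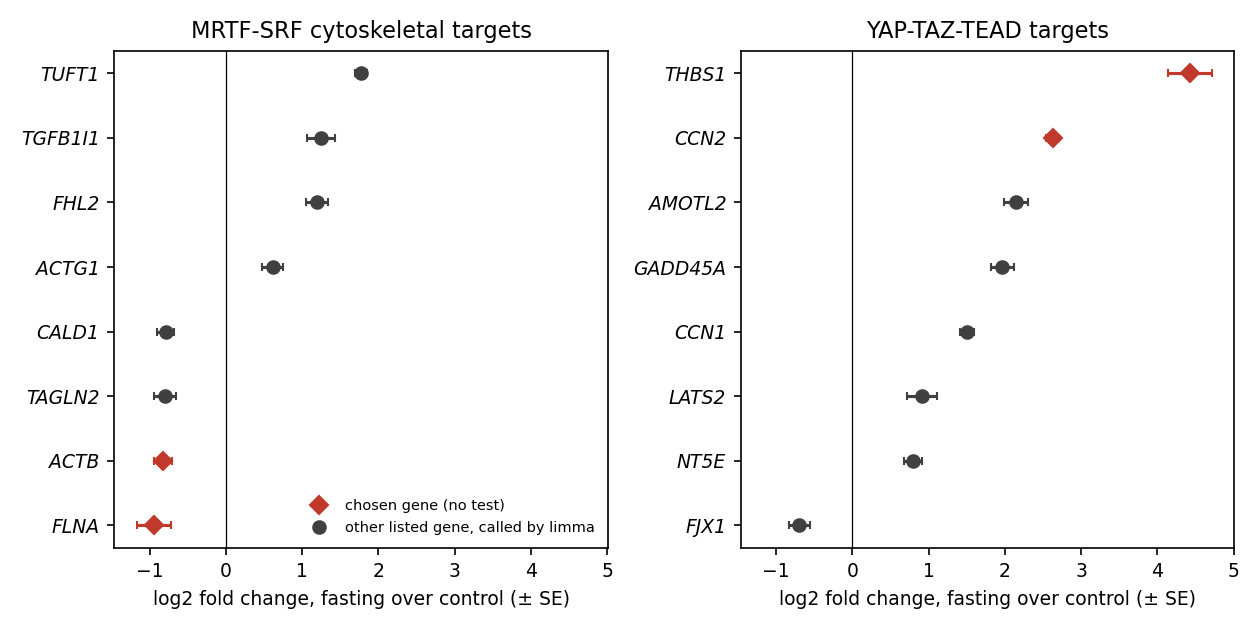
Log2 fold change, fasting over control, of the listed MRTF-SRF cytoskeletal targets (left) and YAP-TAZ-TEAD targets (right), with SE bars. Red diamonds are the genes chosen by name, without a test (ANKRD1, at 0 reads in control medium, is not drawn), and dark circles the other listed genes, all past the limma threshold; the left list spreads from -0.95 to 1.77 and the right one from -0.70 to 4.42.

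Upstream, the Hippo list was mixed. Of 28 genes 6 were listed, with 3 that rose and 2 that fell (median -0.06). The number that rose was 1 with scaling to the total of the listed genes or without any 1 library except fasting replicate 3. Next to AMOTL2 and LATS2, the related angiomotin AMOT fell by 1.72 (44.4, 45.0 and 30.3 normalized counts in fasting medium, against 142, 125 and 128 in control medium; limma, adjusted p = 6.91e-04), and the kinase TAOK2 by 0.62 on the log2 scale. YAP1, WWTR1 (TAZ) and TEAD1 to TEAD4 were not listed.

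Filament builders were few in the table. Of 47 actin nucleation and turnover genes 4 were listed, of which 0 rose and 3 fell (median -0.74): the formins DIAPH3 (-0.97) and DIAPH1 (-0.65) and the monomer binder PFN2 (-0.57). DIAPH1 did not pass with RLE scaling (-0.45, adjusted p = 0.0591), and with the length trend removed it passed at -0.33. Of the 47 genes 6.38% were called, against 11.1% of all genes tested. Of 11 other cross-linkers 3 were listed, of which 0 rose and 2 fell (median -1.07). The filament bundler FSCN1, fascin, had 2913, 2912 and 3775 normalized counts in fasting medium, against 9311, 10007 and 9725 in control medium (-1.61, limma, adjusted p = 1.22e-04), and PLS1, plastin-1, fell by 0.92 on the log2 scale. SPTBN1, a spectrin, differed by -1.07 and did not pass (limma, adjusted p = 0.0676); with fasting replicate 3 dropped it differed by -0.67 and passed (1.05e-06). FLNC, ACTN1 and ACTN4 were not listed.

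At the membrane and in the matrix, both directions were seen. Of 26 focal adhesion genes 6 were listed, and 3 rose and 2 fell (median -0.06). The LIM protein TES rose by 1.63 and the integrin-linked PARVA by 1.03, while the integrin subunit ITGA3 (-1.11) and the talin TLN2 (-1.14) fell. TLN2 lost its call without any 1 control library (adjusted p = 0.0766 to 0.112) and with RLE scaling (-0.94). Without fasting replicate 3 TLN2 differed by -0.81. Of 13 other thrombospondin, CCN and matricellular genes, CCN1 alone was listed. Among 17 genes that receive thrombospondin-1 or belong to the TGF-beta route it can activate, 7 were listed, and 3 rose and 3 fell (median -0.80). The heparan sulphate carriers parted: SDC4 rose by 0.80 and SDC1 fell to 1570, 1608 and 1771 normalized counts in fasting medium, against 4833, 5025 and 5343 in control medium (-1.62, adjusted p = 3.35e-05). TGFBR3 (-1.30) and TGFB3 (-0.80) fell, and SMAD7 rose by 0.67. TGFB3 did not pass with RLE scaling (adjusted p = 0.0895) or without fasting replicate 1, control replicate 1 or control replicate 3 (0.0647 to 0.0897). SMAD7 did not pass with libraries scaled to the total of the listed genes (0.19), and that list then had 1 gene higher and 4 lower. CD47, CD36 and TGFB1 were not listed. In the serum response list 10 of 15 genes were listed and all 10 rose (median 1.83), led by FOS (4.67) and ATF3 (4.13). With libraries scaled to the total of the listed genes 8 of them passed, and without control replicate 1 the number was 9.

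The genes nearest in pattern were found by the root mean square difference of the 6 log2 values, each gene centred on its control mean, among 2897 genes averaging 100 or more in either medium. Nearest to ACTB were CHAF1B (0.03), MAP1LC3C (0.04) and KNSTRN (0.04). Nearest to FLNA were BRD3 (0.05), GK5 (0.05) and HCFC1 (0.06), which share its low value in fasting replicate 3. Those nearest to CCN2 included CSRNP1 (0.08) and MIR22HG (0.11). The nearest to THBS1 were MMP1 (0.39), ATF3 (0.39) and FOS (0.42), further off than those of the other 4 genes. Those nearest to ANKRD1, on few reads, were HDAC9 (0.20), SGSM1 (0.23) and HSPH1 (0.25). With 0 control reads, the size of the ANKRD1 rise depends on the added 1, and so does the choice of its nearest genes.

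In the InterPro entries that the table gives for each gene, THBS1 and CCN2 share the thrombospondin type-1 repeat and the VWFC domain. Of 4 other listed genes with the type-1 repeat 2 rose, ADAMTS16 (1.58) and CCN1, and 2 fell, UNC5B (-0.92) and ADGRB2 (-1.54). Of 4 other listed genes with a VWFC domain 1 rose and 3 fell. Of 5 other listed genes of the actin family 3 rose, ACTRT3 (1.92), ACTR3C (1.45) and ACTG1, and 2 fell, ACTR1A (-0.53) and ACTR5 (-0.68). These domain groups were formed after the values were seen.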

How the data were processed

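One deposited table served all 6 libraries. Samples were grouped by the treatment characteristic; the protocol field gives the low-serum medium for all 6 and was not used for this. Per the labels' protocols, total RNA was made into strand-specific libraries. Which aligner, build, annotation and strand setting the counting used is not given in the sources used here. Tools in the submitters' processing notes, without roles, are DESeq 1.10.1, HTSeq 0.6.1 and UMI-tools 1.0.0. The 6 deposited columns carry no stated unit and hold a signal that, from the values, is read counts divided by a size factor per library (0.727 to 1.41). Beside them are the authors' deposited p-value (raw and adjusted) and log2 ratio; the p-values were used to derive the number of genes tested.

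Computed here were log2(normalized count + 1) values and limma 3.58.1 (trend, moderated, two-sided; genes averaging 1 or more in either medium), with Benjamini-Hochberg adjustment over all 29845 genes (unlisted ones entered as not significant) and a threshold of 0.05. The variance was moderated on genes selected for their difference. Alternatives were other pseudocounts, filters and scalings, edgeR 4.0.16 and DESeq2 1.42.0 on the recovered reads, a replicate block, removal of the trend with transcript length (GENCODE 29; 98.7% of genes had one) and leaving out each library. edgeR called 3359 genes. Fits were tested on simulated data with the same added spread for every gene. The simulation had no length trend and no selection of genes by their difference, so it does not cover these features. The 5 genes, the 16 lists and the tests were chosen with earlier results of these data known. Genes named are the 5, every listed gene of 5 lists, the 2 largest called rises and falls of the others, and the 3 nearest in pattern. Lists were matched by Ensembl identifier. Some named genes and 1 list are not reported here.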

Additional observations from a re-analysis of the deposited data

How the results depend on the processing

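The direction of ACTB, FLNA, THBS1 and CCN2 was the same in every setting run. With libraries scaled to the total of the listed genes the log2 differences were -1.30 for ACTB, -1.42 for FLNA, 3.99 for THBS1 and 2.15 for CCN2, and with RLE scaling -0.62 for ACTB and 2.82 for CCN2. With the length trend removed they were -1.13 for ACTB, -0.45 for FLNA, 4.88 for THBS1 and 2.34 for CCN2, and the ratios became 0.68 for FLNA over ACTB and 2.53 for THBS1 over CCN2. With a pseudocount of 5 they were 3.68 for THBS1, 1.16 for THBS1 over CCN2 and 4.63 for THBS1 over FLNA. The cause was not tested. Leaving out 1 library gave -0.93 to -0.76 for ACTB, -1.08 to -0.74 for FLNA, 4.24 to 4.64 for THBS1 and 2.57 to 2.68 for CCN2. The ratio of ANKRD1 to the level of 3 control reads was then 5.40 to 10.3. For FLNA over ACTB the log2 difference was -0.30 to 0.20. Called genes in the table then numbered 2624 to 3509.

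Among the lists, scaling to the total of the listed genes left 0 calls among the other actin isoforms. Among the reference genes for RT-PCR 1 was then higher and 1 lower (TUBB), in place of 4 higher and 0 lower. Leaving out 1 library gave 0 to 1 calls among the actin isoforms and SRF cofactors, 3 to 6 in the Hippo list and 2 to 5 among the reference genes. In the labels, same-numbered libraries of the 2 media share only a number. The correlations of their deviations were 0.03, 0.03 and 0.08, and those of differently numbered libraries -0.11 to 0.10. With 3 libraries per medium these values cannot tell whether the libraries were paired. With the replicate number as a block 3293 genes were called in place of 3312. Calls in 1 direction moved further in some lists: with scaling to the total of the listed genes 3 YAP-TAZ-TEAD targets and 1 gene of the thrombospondin-1 receptor and TGF-beta list were higher, and 1 focal adhesion gene was lower with RLE scaling or without any 1 control library. FJX1, the 1 YAP-TAZ-TEAD target that fell, was lost without fasting replicate 2 or control replicate 1 or 2. Depth limits ANKRD1 and the control level of THBS1.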

Other observations

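ACTB is often used as a reference gene for RT-PCR, and of 15 other such genes 5 were listed, of which 4 rose, 0 fell and 1 did not pass. RPLP0, a ribosomal protein, rose by 1.097 (limma, adjusted p = 0.00907), GAPDH by 0.60 and the transferrin receptor TFRC by 0.54, and with libraries scaled to the total of the listed genes these 3 no longer passed. GAPDH also failed when any 1 control library was dropped (0.0560 to 0.0827), and TFRC when any library but fasting replicate 3 was (0.144 to 0.176). Without fasting replicate 3 RPLP0 rose by 0.84. TUBB differed by -0.59 and did not pass (limma, adjusted p = 0.0646). With fasting replicate 3 dropped it differed by -0.79 and passed (limma, adjusted p = 1.65e-08). It also passed with libraries scaled to the total of the listed genes (-1.07) and with the length trend removed (-0.75). With RLE scaling it did not pass (-0.39). HPRT1, TBP, PPIA and B2M were not listed. Relative to ACTB in the same library, the log2 difference between media was 5.25 for THBS1, 3.45 for CCN2 and -0.13 for FLNA.

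FLNA binds actin through calponin homology domains. Of 25 other listed genes with this InterPro entry, 3 rose and 19 fell (median log2 fold change -0.92), where 49.7% of all listed genes were called higher and 44.6% lower. IQGAP2 (-2.87), ASPM (-2.12) and DIXDC1 (-1.96) were the lowest, and TAGLN3 (2.56) was the highest. Their median transcript length was 5844 bases, against 3365 for all listed genes. Without fasting replicate 3 the counts were 3 and 22, with the length trend removed 3 and 18 (median -0.61), and with RLE scaling 3 and 16. Of 48 other listed genes with the ankyrin repeat that ANKRD1 carries, 15 rose and 27 fell, with RLE scaling 16 and 19, with scaling to the total of the listed genes 7 and 29, and without control replicate 1, 2 or 3 the number that fell was 16, 17 or 18. These groups were formed after the values were seen, and the part of length in them was not tested.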
